A study of Homo sapiens with 8 samples.

Results

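The response shared by 3 plastic antioxidants was measured in HepG2 cells, a human hepatoma line, that overexpress CYP3A4, the cytochrome P450 enzyme that oxidises many drugs in the liver. The series holds 8 RNA-sequencing samples in 4 groups of 2, labelled day 1 and day 2: cells given 0.2% DMSO, the solvent, and cells given compound 4, compound 5 or compound 6, each for 24 h at its own IC50. All 8 samples carry the CYP3A4 construct, the cells are grown with blasticidin, and no group lacks the construct, so every comparison is against solvent alone. Whether the line is 1 clone is not given in the sources used here. The concentrations differ between the compounds, so compound and concentration cannot be told apart, and the exposure time of the RNA samples is shorter than that of the viability assay that set the IC50. The 3 compounds are bisphenols in which 2 bulky phenol rings are joined by a short bridge: compound 4 has tert-butyl and methyl groups on a methylene-bridged pair, compound 5 has only tert-butyl groups on a pair whose rings sit on the same carbon of an ethane unit, and compound 6 has cyclohexyl and methyl groups on a methylene-bridged pair.

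The rule for a shared direction was that a gene's 6 treated values were all above, or all below, its 2 DMSO values. Values are CPM, the counts divided by the library total and brought to a common scale, after scaling of the libraries by the trimmed mean of M-values (TMM). Of 13404 genes with enough counts to test, out of 60230 in the table, 3564 met this rule (26.6%), 1646 of them above DMSO (12.3%) and 1918 below (14.3%). The mean of the 3 compounds, each weighted equally, was then tested against DMSO with edgeR's quasi-likelihood test, and a gene was called when its Benjamini-Hochberg adjusted p was under 0.05. The test called 2608 genes (19.5%), 1288 higher (9.61%) and 1320 lower (9.85%). Both conditions were met by 2263 genes (16.9% of those tested), 1106 higher (8.25%) and 1157 lower (8.63%). These 2263 genes are called the common response, and its members, below. A further 345 genes were called without meeting the rule (2.57%). Another 1301 met it without being called (9.71%), with a median log2 fold change of 0.296 in size, and are not counted as members. The rule and the test use the same values, so their joint count is a description. Against DMSO each compound alone called 871 higher and 727 lower genes for compound 4 (6.5% and 5.42%), 1857 and 1906 for compound 5 (13.9% and 14.2%), and 375 and 215 for compound 6 (2.8% and 1.6%), 3 comparisons that share the DMSO samples.

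Among gene lists, 41 of 54 replication genes, 37 of 40 kinesin and kinetochore genes and 22 of 29 sterol genes were called lower, while 26 of 29 targets of ATF4, 18 of 29 of NRF2 and 19 of 31 immediate early genes were called higher. List counts here and below are of pooled calls, to be read against the 19.5% called over all genes, and not every called gene met the rule. A pooled call does not mean a call with each compound alone. Both conditions held for 39 of the 41 replication, 35 of the 37 kinesin and kinetochore, 21 of the 22 sterol, 25 of the 26 ATF4, 18 of the 18 NRF2 and 17 of the 19 immediate early genes. When the 6 treated samples were fitted as 1 group, which counts differences among the compounds as spread, the 6 counts were 22, 30, 19, 11, 11 and 7. HepG2 cells divide continuously, and genes for DNA replication and mitosis are transcribed in waves governed by E2F factors and by the DREAM and MuvB complexes. ATF4 is the transcription factor translated when eIF2-alpha is phosphorylated, as in amino acid shortage or endoplasmic reticulum stress, and its targets supply amino acids and tRNA charging. NRF2 activates antioxidant genes when its partner KEAP1 is modified, MTF1 activates metallothioneins when zinc is free, and SREBP2 activates cholesterol synthesis when sterol in the endoplasmic reticulum is low.

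The libraries held 9472261 to 13308975 counts, so that 3 counts equalled 0.225 to 0.317 CPM. Mitochondrial genes gave 4.91% and 5.12% of counts with DMSO and 5.31% to 6.21% in treated samples. The 10 most abundant genes of a library gave 9.34% and 9.4% with DMSO and 9.77% to 10.6% in treated samples, so both shares were higher in every treated library. Hepatocyte markers were present, with 10 of them summing to 40000 to 41900 CPM with DMSO and 31500 to 38400 in treated samples. Markers of endothelium summed to 0.904 and 1.28 CPM with DMSO and 0.864 to 2.06 in treated samples, and those of lymphocytes to 0 and 0.164 with DMSO and 0.236 to 0.659 in treated samples, higher in all 6 but from few counts, and KDR, STAB2, PTPRC and CD3E were at 0 in every sample. Markers of stellate cells summed to 17.5 to 21.6 CPM with DMSO and 10.7 to 22.1 in treated samples, nearly all from ACTA2 and PDGFRB, with COL1A2 and LUM at 0. Cholangiocyte markers summed to 415 and 444 CPM with DMSO and 446 to 475 in treated samples, with every treated sum the higher. They came nearly all from EPCAM, SOX9 and KRT19, of which KRT19 was called higher, and CFTR was at 0. Of the 2 stellate markers tested, PDGFRB was called higher (1.23) and ACTA2 lower (-0.63). The macrophage list summed to 27.4 and 38.6 CPM with DMSO and to 36.3 to 58.9 in treated samples, nearly all of it CD68, which was called higher along with CD14, while CD163, MARCO and CSF1R were at 0. The part of these marker sums in the results was not tested. In whole cultures, fewer cells of a kind and less RNA per cell cannot be told apart.

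The sizes of change in the common response were modest for most members. Members that were higher had a median log2 fold change of 0.62 (0.253 to 6.5) and members that were lower one of -0.576 (-4.18 to -0.24). A pooled log2 change of at least 1 in size was called for 250 higher genes (1.87%) and 196 lower ones (1.46%). A log2 change of at least 1 in every compound was reached by 145 higher genes (1.08% of those tested) and 59 lower genes (0.44%). At the edge of the rule, the lower members MAP7D2, DDI2 and ELAVL1 had a treated sample that all but touched a DMSO sample. CHMP1B, AGFG1 and PDIA2 were called higher but had 1 treated sample just inside the DMSO range. Both DMSO libraries weigh on the test: without DMSO replicate 1 it called 801 genes and without DMSO replicate 2 it called 673, with the remaining control assumed to vary like the treated groups. Without compound 5, it called 1354. Another scaling also moved the balance of directions, with 49.4% of calls higher under TMM, 50.9% under relative log expression, 41.9% by upper quartile and 37% by library size alone. In DESeq2, which changes the test as well, 55.4% of calls were higher.

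**Figure D1:**
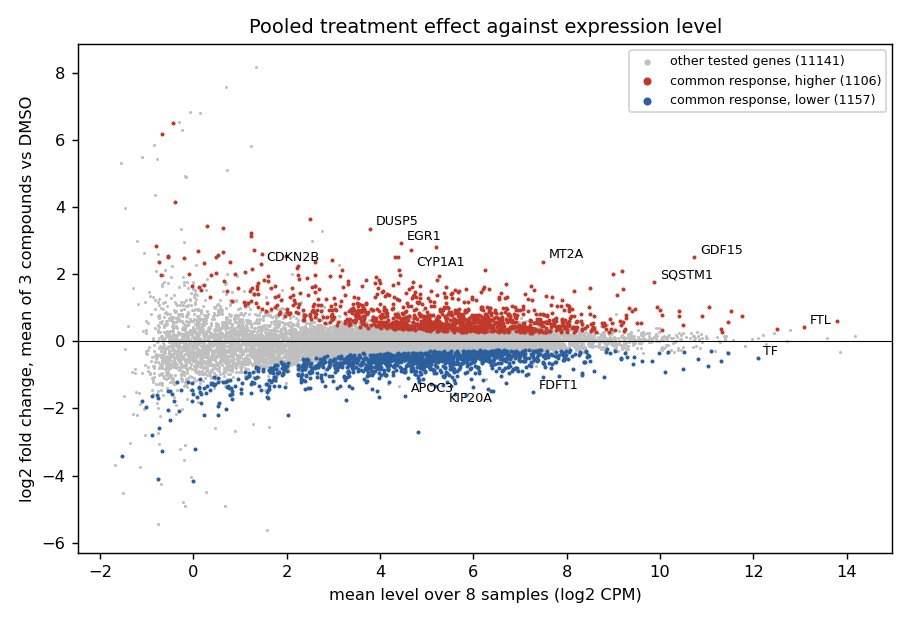
Log2 fold change of the mean of the 3 compounds over DMSO (y axis) against mean level in log2 CPM (x axis), 1 point per tested gene. Red points are the 1106 higher and blue points the 1157 lower members of the common response, and grey points are the remaining tested genes.

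The 2 days share no sample, so genes chosen on one day could be read on the other. With the choice made on day 1 (all 3 treated on one side of that day's DMSO sample and a mean log2 difference of at least 1), 347 genes were higher, and on day 2 all 3 treated samples were above DMSO for 248 of them (71.5%), where 26.5% of all tested genes were. For the 312 genes lower on day 1 the count was 216 (69.2%, against 28.6% of all genes). The reverse reading, from day 2 to day 1, gave 316 of 397 higher genes (79.6%, against 30.1%) and 233 of 325 lower genes (71.7%, against 31.9%). The medians shrank between the choosing and the reading day, from 1.31 to 1.15 for genes higher on day 1 and from -1.24 to -0.908 for genes lower on day 1. In the reverse reading they went from 1.38 to 0.973 and from -1.24 to -0.854.

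Members with a symbol and a mean of at least 1 CPM over the 8 samples were next ordered by their change in the compound that moved them least. The first 12 in each direction were taken. DUSP5, a phosphatase that inactivates ERK, was at 1.77 and 1.23 CPM in the DMSO samples, 10.1 and 8.27 under compound 4, 33.9 and 33.4 under compound 5, and 5.32 and 17.1 under compound 6. EGR1, an immediate early transcription factor, was at 3.05 and 3.12 CPM in the DMSO samples, 15.9 and 11.2 under compound 4, 51.1 and 55.8 under compound 5, and 10.7 and 24.6 under compound 6. AQP3, a water and glycerol channel, was at 4.13 and 4.27 CPM in the DMSO samples, 36.2 and 29.6 under compound 4, 28.3 and 24.6 under compound 5, and 11.9 and 19.9 under compound 6. All treated samples of these 3 genes lay above both controls, and the log2 fold changes were 3.35 ± 0.45 (SE), adjusted p = 0.000839 for DUSP5, 2.92 ± 0.33 (SE), adjusted p = 0.000398 for EGR1 and 2.51 ± 0.22 (SE), adjusted p = 0.000175 for AQP3. UCA1, a long non-coding RNA, was at 0.689 and 0.329 CPM in the DMSO samples, 12.1 and 7.1 under compound 4, 12.8 and 7.07 under compound 5, and 1.67 and 3.46 under compound 6. Its change of 3.64 ± 0.52 (SE), adjusted p = 0.00121, rested on low control values, the compounds differed (adjusted p = 0.0259), and with compound 6 alone it was not called (adjusted p = 0.0641). CDKN2B, which encodes the CDK4 and CDK6 inhibitor p15, was at 0.689 and 0.658 CPM in the DMSO samples, 2.65 and 3.2 under compound 4, 5.22 and 3.61 under compound 5, and 2.4 and 3.38 under compound 6, a change of 2.30 ± 0.35 (SE), adjusted p = 0.00166. RASD1, a Ras-related GTPase, ranged from 16.1 to 89.97 CPM in the treated samples against 5.91 and 6.08 with DMSO. Several of the remaining genes were close to zero in the controls. EMP1, an epithelial membrane protein, had 3 counts over both DMSO libraries and 112 over the 6 treated ones, a ratio of 11.9 with an exact 95% counting interval of 3.98 to 58.7. MYEOV had 7 and 215 counts (ratio 9.81, 4.68 to 24.7), and FUT1, a fucosyltransferase, had 7 and 216 (ratio 9.86, 4.7 to 24.8). GPRC5A, SLC22A15 and SP6 had 10, 6 and 9 counts with DMSO and ratios of 7.03, 7.51 and 5.47. These intervals cover counting error only. With compound 4 alone EMP1, FUT1 and SLC22A15 were not called (adjusted p = 0.0588, 0.0598 and 0.137). With compound 6 alone EMP1 and SLC22A15 were not called (adjusted p = 0.0712 and 0.101). The pooled call was lost for EMP1 without DMSO replicate 1, for EMP1, FUT1, GPRC5A, SLC22A15 and SP6 without DMSO replicate 2 and for EMP1 and SLC22A15 without compound 5, with adjusted p-values from 0.0532 to 0.189. SLC22A15 was not called with the treated samples as 1 group.

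Of the 12 lower genes 11 are described. APOC3, an inhibitor of lipoprotein lipase, was at 53.7 and 40.4 CPM in the DMSO samples, 10.1 and 16.3 under compound 4, 14.6 and 16.1 under compound 5, and 19.9 and 15.2 under compound 6, a log2 fold change of -1.62 ± 0.17 (SE), adjusted p = 0.000306, with all treated samples below both controls. PCYT1B, which makes CDP-choline for phosphatidylcholine, ranged from 0.367 to 1.67 CPM in the treated samples against 3.25 and 3.53 with DMSO. TUBB1, a beta-tubulin, changed by -1.75 ± 0.14 (SE), adjusted p = 0.00013, SALL2, a zinc finger factor, by -2.02 ± 0.31 (SE), adjusted p = 0.00167, and CENPI, a kinetochore protein, by -1.33 ± 0.19 (SE), adjusted p = 0.00113. HPR, which shares 39% of its 31-base words with transcripts of other genes, changed by -2.18 ± 0.26, and its reads may be split with haptoglobin. ASB9, ACY3, ZNF542P, SESN3 and ACBD7 had log2 fold changes of -1.65, -1.71, -1.54, -1.51 and -1.56, with DMSO values of 1.87 to 6.4 CPM, and ACBD7 shares 20.7% of its words. Leaving out libraries ended the pooled call for ACBD7, ACY3, ASB9, SESN3 and ZNF542P without DMSO replicate 1, for ACBD7, ACY3, SESN3 and ZNF542P without DMSO replicate 2 and for SESN3 without compound 6 replicate 2, with adjusted p-values from 0.0527 to 0.167. ACBD7 and SESN3 were not called by DESeq2, nor SESN3 with the treated samples as 1 group. With compound 6 alone ACBD7, ACY3, ASB9, HPR, PCYT1B, SALL2 and SESN3 were not called, with adjusted p-values from 0.051 to 0.138. With compound 4 alone SESN3 and ZNF542P were not called (adjusted p = 0.129 and 0.0723), nor ACBD7 and SESN3 with compound 5 alone (adjusted p = 0.0504 and 0.0555).

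**Figure D2:**
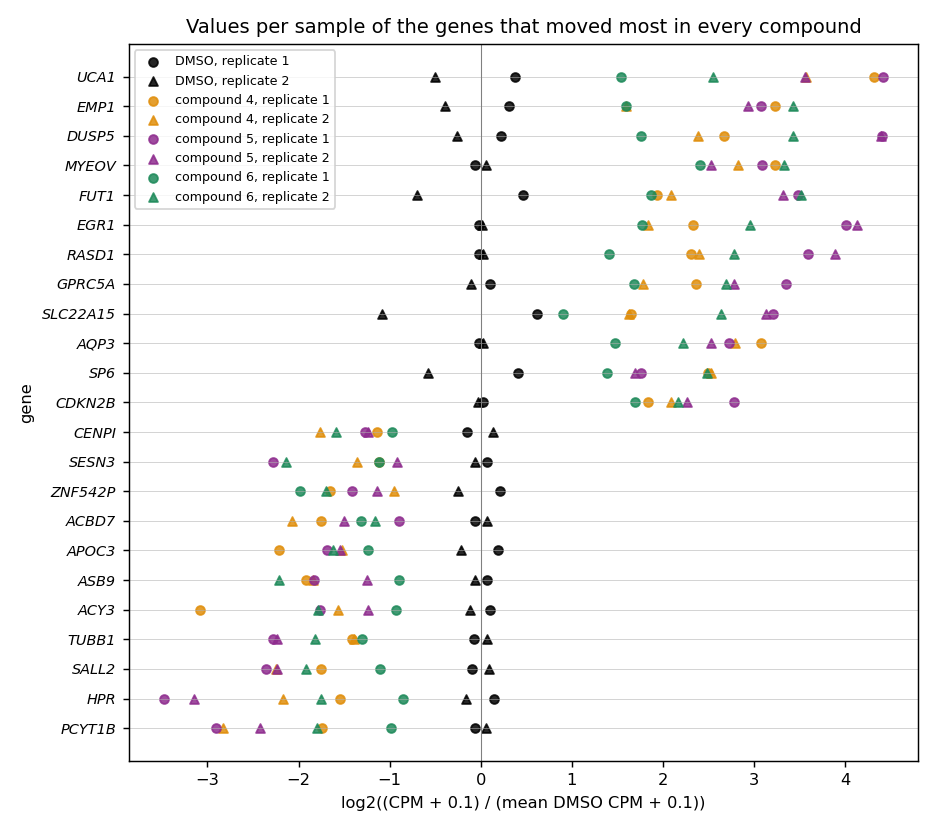
Value of each sample over the mean of the DMSO samples (x axis, log2 with 0.1 CPM added) for 12 higher and 11 lower genes (y axis). They are those with the largest change in the compound that moved them least, among members with a symbol and a mean of at least 1 CPM. Black symbols are DMSO and coloured symbols the compounds, circles replicate 1 and triangles replicate 2; no treated symbol overlaps the black ones in any row, which the choice of genes fixed.

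Genes of DNA replication were mostly lower. Of 54 replication genes tested, 41 were called lower and 1 higher (19.5% of all genes were called in either direction), 46 had all 6 treated samples below DMSO, and the median log2 fold change was -0.531 against -0.00906 over all genes. TICRR, which loads the helicase activator CDC45, was at 33.2 and 46.4 CPM in the DMSO samples, 17 and 12.9 under compound 4, 20.5 and 21 under compound 5, and 26.1 and 17.4 under compound 6. GINS2, a subunit of the replicative helicase, was at 58.4 and 55.7 CPM in the DMSO samples, 29.1 and 31.2 under compound 4, 21.6 and 30.1 under compound 5, and 43.1 and 25.7 under compound 6. The pooled log2 fold changes were -1.08 ± 0.17 (SE), adjusted p = 0.0018, and -0.93 ± 0.17 (SE), adjusted p = 0.00381, and with compound 6 alone GINS2 was not called. GINS1 changed by -0.86 ± 0.17 (SE), adjusted p = 0.00518, GINS4 by -0.73 ± 0.15 (SE), adjusted p = 0.00693, POLA2, a subunit of the polymerase that starts each DNA strand, by -0.81 ± 0.18 (SE), adjusted p = 0.01, and FEN1, the nuclease that trims Okazaki fragments, by -0.64 ± 0.14 (SE), adjusted p = 0.00931. With compound 6 alone GINS1, GINS4 and POLA2 were not called either (adjusted p = 0.0673, 0.135 and 0.268). With compound 4 alone POLA2 and FEN1 were not called (adjusted p = 0.0511 and 0.0792). POLA2 and POLD4 share 37.2% and 30% of their 31-base words with transcripts of other genes, so that their reads may be split. POLD4, the small subunit of polymerase delta, was the exception, with 12.8 to 21.8 CPM in the treated samples against 8.96 and 7.56 with DMSO (0.95 ± 0.19 (SE), adjusted p = 0.00715). The count of 41 fell to 12 without DMSO replicate 1, to 9 without DMSO replicate 2, to 28 without compound 5 and to 22 with the treated samples as 1 group, where POLA2 was not called. Among these genes the pooled call did not hold for FEN1, GINS1, GINS2, GINS4 and POLA2 without DMSO replicate 1, for FEN1, GINS1, POLA2, POLD4 and TICRR without DMSO replicate 2 and for POLA2 without compound 5, with adjusted p-values from 0.0517 to 0.106.

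Enzymes of nucleotide supply were lower in part. Among 21 genes of nucleotide supply 10 were called lower, with a median of -0.113. TK1, thymidine kinase, was at 142 and 131 CPM in the DMSO samples, 60.8 and 71.8 under compound 4, 71.1 and 85.1 under compound 5, and 95.7 and 60.4 under compound 6. RRM2, the cell cycle-dependent subunit of ribonucleotide reductase, ranged from 96.5 to 160.5 CPM in the treated samples against 209.6 and 216 with DMSO. No treated value overlapped a control for these genes, and the changes were -0.89 ± 0.15 (SE), adjusted p = 0.00247 and -0.73 ± 0.12 (SE), adjusted p = 0.00196. RRM2 shares 22.7% of its 31-base words with other genes. DUT, which removes dUTP, changed by -0.83 ± 0.16. The 10 calls became 4 without DMSO replicate 1, 3 without DMSO replicate 2 and 6 without compound 5. The call was missed for DUT without DMSO replicate 1 and for DUT without DMSO replicate 2, with adjusted p-values from 0.0598 to 0.0702.

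Mitotic genes were mostly lower as well. Of 31 mitotic kinases, cyclins and exit factors 27 were called lower (median -0.741), and of 40 kinesin, kinetochore and condensin genes 37 were (median -0.759). KIF20A, a kinesin of cytokinesis, was at 70.4 and 76.3 CPM in the DMSO samples, 22.4 and 24.9 under compound 4, 32 and 34.9 under compound 5, and 39.1 and 26.7 under compound 6. KIF11, the motor that separates spindle poles, was at 64.2 and 70.3 CPM in the DMSO samples, 26.4 and 24.5 under compound 4, 36.8 and 37.6 under compound 5, and 39.3 and 30.2 under compound 6. ESPL1, the protease separase, was at 64.5 and 77.9 CPM in the DMSO samples, 31.6 and 26.3 under compound 4, 36.6 and 42.5 under compound 5, and 44.6 and 34.7 under compound 6. These 3 genes changed by -1.31 ± 0.12 (SE), adjusted p = 0.000232, by -1.07 ± 0.10 (SE), adjusted p = 0.00025 and by -0.9998 ± 0.12 (SE), adjusted p = 0.000555, and compound 4 gave the lowest mean in each. CCNA2 (cyclin A2), AURKB (Aurora kinase B) and CDC25C, which activates CDK1, changed by -0.96 ± 0.13, -0.95 ± 0.12 and -0.94 ± 0.12. SPC25, of the NDC80 complex at the kinetochore, changed by -1.13 ± 0.20. Compound 4 had the largest median in both lists (-0.926 and -0.974, against -0.603 and -0.629 with compound 5 and -0.673 and -0.659 with compound 6), and this order is a description, since the test of a difference among the compounds passed for 2 and 6 of the genes, where 10.8% of all genes passed. Without DMSO replicate 2, the counts were 15 and 17, and without DMSO replicate 1 they were 22 and 29. The pooled call was lost for SPC25 without DMSO replicate 2, with an adjusted p of 0.0551.

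The promoters of these genes were searched for letters that the rule did not use. RefSeq lists a promoter (250 bases before to 50 after the first listed start, build GRCh38.p14) for 9520 of the 11519 tested protein-coding genes (82.6%). The cell cycle homology region, the site read by DREAM and MuvB, was searched as TTTGAA or TTCGAA on both strands. It was in 27 of 36 promoters of the kinesin and kinetochore list (75%), in 192 of 902 lower members (21.3%) and in 1052 of all 9520 promoters (11.1%), but in only 2 of 46 promoters of the replication list (4.35%). The CCAAT box was in 23 of those 36 promoters (63.9%), in 47.8% of lower members and in 37.1% of all. The E2F letters TTGGCGC or TTCGCGC were in 17 of 46 promoters of the replication list (37%), in 5 of 36 of the kinesin and kinetochore list (13.9%), in 12.5% of lower members and in 8.76% of all. A match is a description of letters, and does not show binding. Of the higher members 835 of 1048 have a listed promoter (79.7%), under the minimum of 80% set for giving a share, so the check is void for them. The 250 bases upstream of the start are given for KIF11, at chr10:92592880-92593129 (+ strand), for TOP2A, the topoisomerase that untangles sister chromosomes, at chr17:40417897-40418146 (- strand), and for POLA2, at chr11:65261712-65261961 (+ strand). Capitals mark the cell cycle homology region in the first 2 and the E2F letters in POLA2, on either strand.
KIF11: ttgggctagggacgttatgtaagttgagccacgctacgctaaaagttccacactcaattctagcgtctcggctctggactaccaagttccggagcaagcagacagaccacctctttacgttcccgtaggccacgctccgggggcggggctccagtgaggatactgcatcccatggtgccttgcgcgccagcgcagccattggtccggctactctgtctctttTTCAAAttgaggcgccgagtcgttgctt
TOP2A: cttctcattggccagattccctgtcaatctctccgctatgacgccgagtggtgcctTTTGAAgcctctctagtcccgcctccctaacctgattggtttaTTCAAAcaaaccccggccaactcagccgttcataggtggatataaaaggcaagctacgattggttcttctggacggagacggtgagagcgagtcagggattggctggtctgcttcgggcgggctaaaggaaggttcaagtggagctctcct
POLA2: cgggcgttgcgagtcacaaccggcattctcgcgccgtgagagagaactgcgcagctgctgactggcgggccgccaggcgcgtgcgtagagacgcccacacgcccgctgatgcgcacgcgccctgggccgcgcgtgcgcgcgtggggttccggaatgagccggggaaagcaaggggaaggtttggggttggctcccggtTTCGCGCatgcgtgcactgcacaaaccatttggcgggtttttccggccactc
TOP2A was chosen after its values were seen; its level was 179.9 to 335 CPM in the treated samples against 469 and 536 with DMSO (-0.9961 ± 0.11 (SE), adjusted p = 0.000353).

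Genes for repair were mostly lower, and those of G1 control and p53 moved in both directions. Of 27 homologous recombination and Fanconi genes 18 were called lower (median -0.591), among them the helicases BRIP1 (-0.84 ± 0.14) and BLM (-0.76 ± 0.14), the checkpoint kinase CHEK1 (-0.76 ± 0.11) and RFWD3, a ubiquitin ligase for RPA (-0.44 ± 0.11). Of 22 genes of G1 control 7 were called lower and 1, CDKN2B, higher. The repressors E2F7 and E2F8 changed by -1.32 ± 0.18 (SE), adjusted p = 0.00103 and -1.11 ± 0.24 (SE), adjusted p = 0.00932, and CDKN2C, which encodes p18, by -1.05 ± 0.21. E2F7 was at 12.8 and 12.7 CPM in the DMSO samples, 4.36 and 4.37 under compound 4, 5.77 and 3.93 under compound 5, and 7.72 and 5.11 under compound 6. Of 25 targets of p53 4 were called higher and 8 lower (median -0.148). The 4 higher were PLK3, a stress kinase (1.56 ± 0.25 (SE), adjusted p = 0.00238), SESN2, also an ATF4 target (0.91 ± 0.16 (SE), adjusted p = 0.00372), TNFRSF10B (0.46) and GADD45A (0.62), while SESN1 (-0.99 ± 0.15 (SE), adjusted p = 0.00172) and DDB2, which recognises ultraviolet lesions (-0.79 ± 0.12 (SE), adjusted p = 0.0018), were lower. CDKN1A (p21) and MDM2, named here after their values were seen, had log2 fold changes of 0.19 (adjusted p = 0.161) and 0.03 (adjusted p = 0.852). The 18 repair calls became 9 and 3, the 7 lower G1 calls 3 and 1, the 4 higher p53 target calls 1 and 2, and the 8 lower ones 2 and 2, without DMSO replicate 1 and DMSO replicate 2. Without compound 5 the G1 count was 3 and the p53 target counts were 2 and 4, and with the treated samples as 1 group the p53 target counts were 2 and 3, and RFWD3 and SESN2 were not called. Leaving out libraries ended the pooled call for RFWD3 and SESN2 without DMSO replicate 1, for BLM, BRIP1, CDKN2C, E2F8, RFWD3 and SESN2 without DMSO replicate 2, for SESN2 without compound 5 and for RFWD3 without compound 5 replicate 1, with adjusted p-values from 0.0518 to 0.173.

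Targets of ATF4 were mostly higher, with the largest median under compound 5. Of 29 targets tested, 26 were called higher, 25 of them with every treated sample above DMSO, and the median log2 fold change was 0.847 (0.524, 1.31 and 0.865 with compounds 4, 5 and 6). GDF15, a secreted stress cytokine, was at 393 and 294 CPM in the DMSO samples, 1499 and 1779 under compound 4, 3368 and 3763 under compound 5, and 841 and 1705 under compound 6. DDIT3, the transcription factor CHOP, was at 10.3 and 6.25 CPM in the DMSO samples, 19.9 and 20.4 under compound 4, 56.7 and 56.9 under compound 5, and 13.9 and 24.6 under compound 6. SLC7A11, the cystine importer, was at 55 and 53.3 CPM in the DMSO samples, 137 and 89.4 under compound 4, 311 and 213 under compound 5, and 141 and 200.3 under compound 6. The treated samples were above the controls for each gene, with the highest values from compound 5, and the log2 fold changes were 2.51 ± 0.25 (SE), adjusted p = 0.000279, 1.78 ± 0.23 (SE), adjusted p = 0.000813 and 1.67 ± 0.21 (SE), adjusted p = 0.000641. NUPR1, a chromatin-associated stress protein, was at 4.63 and 4.44 CPM in the DMSO samples, 20.9 and 18.6 under compound 4, 12.3 and 12.6 under compound 5, and 10.3 and 13.8 under compound 6 (1.66 ± 0.16 (SE), adjusted p = 0.000251), and here compound 4 was highest. The 3 genes that did not pass were PHGDH (0.03), PSPH (-0.03) and DDIT4 (-0.01); PHGDH and PSPH are enzymes of serine synthesis, and DDIT4 is an inhibitor of mTORC1. In the test of a difference among the compounds 21 of the 29 passed (10.8% of all genes), and the values per compound were 2.26 (compound 4), 3.38 (compound 5) and 1.89 (compound 6) for GDF15, 1.30 (compound 4), 2.79 (compound 5) and 1.24 (compound 6) for DDIT3 and 1.06 (compound 4), 2.27 (compound 5) and 1.66 (compound 6) for SLC7A11. The 26 calls became 18 without DMSO replicate 1, 14 without DMSO replicate 2, 20 without compound 5 and 11 with the treated samples as 1 group, where DDIT3 was not called.

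Cytosolic aminoacyl-tRNA synthetases, which ATF4 also serves, were called higher for 11 of 20 and lower for 1. GARS1, the glycine enzyme, was at 234 and 221 CPM in the DMSO samples, 330.2 and 298 under compound 4, 532 and 520.4 under compound 5, and 354 and 412 under compound 6. SARS1 (serine), CARS1 (cysteine) and MARS1 (methionine) changed by 0.81 ± 0.11, 0.79 ± 0.11 and 0.70 ± 0.09, and GARS1 by 0.81 ± 0.09 (SE), adjusted p = 0.00044. In each of these 4 genes compound 5 had the largest change and compound 4 the smallest. The C/EBP-ATF element, searched as TGATGNAA on both strands, was in 6 of 16 synthetase promoters (37.5%), in 4 of 24 promoters of the ATF4 list (16.7%) and in 154 of all 9520 (1.62%). The upstream promoter of ASNS, asparagine synthetase, at chr7:97872409-97872658 (- strand), is printed with those letters in capitals.
ASNS: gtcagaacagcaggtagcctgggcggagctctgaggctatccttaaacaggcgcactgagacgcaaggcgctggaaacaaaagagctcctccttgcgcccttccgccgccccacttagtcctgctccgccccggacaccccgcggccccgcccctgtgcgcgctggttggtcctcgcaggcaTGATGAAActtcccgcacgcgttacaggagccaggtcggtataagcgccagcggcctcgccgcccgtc
ASNS, chosen after its values were seen, was at 63.8 and 56.8 CPM in the DMSO samples, 119 and 119 under compound 4, 191 and 213 under compound 5, and 153 and 194 under compound 6 (1.42 ± 0.12 (SE), adjusted p = 0.000143). The 11 higher calls became 6 without DMSO replicate 1, 7 without DMSO replicate 2, 6 without compound 5 and 6 with the treated samples as 1 group, and the 1 lower call was lost in each.

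Endoplasmic reticulum folding genes rose in part. Of 32 tested, 10 were called higher, 7 of them with every treated sample above DMSO, and 1, DNAJB11, lower (-0.31), with a median of 0.103. DNAJB9, a co-chaperone of BiP, was at 20.2 and 22.6 CPM in the DMSO samples, 37.5 and 40.2 under compound 4, 80.02 and 73.9 under compound 5, and 24.2 and 31.6 under compound 6 (1.03 ± 0.12 (SE), adjusted p = 0.000509). ERN1, the sensor IRE1, was at 25.4 and 25.7 CPM in the DMSO samples, 33.2 and 27.5 under compound 4, 83.2 and 80.8 under compound 5, and 30.1 and 50.8 under compound 6 (0.87 ± 0.17 (SE), adjusted p = 0.00656). SEC24D, of the COPII coat, and ERO1B, an oxidase, changed by 0.55 ± 0.10 and 0.67 ± 0.20. For DNAJB9, ERN1 and SEC24D the compound 5 samples lay far above the rest, and the compounds differed (adjusted p = 0.00103, 0.00547 and 0.00423). Without compound 5, 1 gene of the list was called higher, without DMSO replicate 1 or 2 there were 2 or 3, and with the treated samples as 1 group there were 0, DNAJB9, ERN1, ERO1B and SEC24D among those lost. The lower call of DNAJB11 was lost in each. ERO1B was not called with the replicate number as a block or by DESeq2. Proteasome and heat shock genes gave no calls in edgeR: of 32 proteasome genes 3 had an unadjusted p under 0.05, all lower, and 0 were called by DESeq2, and of 20 heat shock chaperones 6 had an unadjusted p under 0.05 and 4 were called by DESeq2, evenly in both directions. The pooled call was lost for ERN1, ERO1B and SEC24D without DMSO replicate 1, for ERN1 and ERO1B without DMSO replicate 2, for ERN1, ERO1B and SEC24D without compound 5, for ERO1B without compound 5 replicate 1, for ERO1B without compound 5 replicate 2 and for ERO1B without compound 6 replicate 2, with adjusted p-values from 0.0654 to 0.265.

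NRF2 targets rose in part. Of 29 tested, 18 were called higher, and the median was 0.42 (0.449, 0.358 and 0.283 with compounds 4, 5 and 6). SQSTM1, the autophagy receptor p62 that also binds KEAP1, was at 337 and 310.3 CPM in the DMSO samples, 1121 and 1192 under compound 4, 1495 and 1467 under compound 5, and 623 and 969 under compound 6. OSGIN1, an oxidative stress-induced growth inhibitor, was at 45.9 and 39.2 CPM in the DMSO samples, 98 and 93.7 under compound 4, 165 and 181 under compound 5, and 62.6 and 64.6 under compound 6. Both lay above DMSO in all treated samples (1.78 ± 0.15 (SE), adjusted p = 0.000162, and 1.26 ± 0.10 (SE), adjusted p = 0.00013), and for OSGIN1 the compounds differed, with 1.17 (compound 4), 2.03 (compound 5) and 0.58 (compound 6) (adjusted p = 0.00033). SRXN1, sulfiredoxin, changed by 1.04 ± 0.11, but 84.9% of its 31-base words occur in other transcripts, so that its reads may be split. FTL, ferritin light chain, was at 7394 and 6444 CPM in the DMSO samples, 9466 and 10491 under compound 4, 8456 and 9279 under compound 5, and 8934 and 9002 under compound 6 (0.42 ± 0.09 (SE), adjusted p = 0.0108). AKR1C1, an aldo-keto reductase with close paralogs, ranged from 2931 to 4612 CPM in the treated samples against 2578 and 1953 with DMSO (0.76 ± 0.12 (SE), adjusted p = 0.00168). FTL and AKR1C1 share 33.3% and 35.7% of their words with other genes. NFE2L2, NRF2 itself, changed by 0.42 ± 0.09 (SE), adjusted p = 0.0077. The textbook targets NQO1 and HMOX1, named after their values were seen, had log2 fold changes of 0.15 (adjusted p = 0.273) and -0.05 (adjusted p = 0.706). The 18 calls became 14 without DMSO replicate 1, 11 without DMSO replicate 2, 15 without compound 5 and 11 with the treated samples as 1 group, where NFE2L2 and OSGIN1 were not called. Leaving out libraries ended the pooled call for NFE2L2 without DMSO replicate 1, for FTL and NFE2L2 without DMSO replicate 2 and for NFE2L2 without compound 5, with adjusted p-values from 0.087 to 0.145.

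Metallothioneins, the small cysteine-rich proteins that hold zinc and copper, were called higher in the pooled comparison for 6 of the 7 tested, MT1E, MT1F, MT1G, MT1H, MT1X and MT2A, while MT1M was not (1.93, adjusted p = 0.119). With compound 6 alone only MT2A of these was called, and MT1E, MT1F, MT1G, MT1H, MT1M and MT1X had adjusted p-values of 0.133, 0.869, 0.261, 0.264, 0.863 and 0.244; MT1F, MT1M and MT1X are named after their values were seen. Of 13 genes of metal binding and zinc handling 7 were called higher and 2 lower, with a median of 0.876 (1.15, 1.57 and 0.113 with compounds 4, 5 and 6). MT2A was at 40.1 and 43.9 CPM in the DMSO samples, 233 and 296 under compound 4, 253 and 294 under compound 5, and 97.5 and 189 under compound 6. MT1E was at 24.7 and 31.4 CPM in the DMSO samples, 86.4 and 137 under compound 4, 92.6 and 128 under compound 5, and 35.3 and 67.7 under compound 6. MT1G was at 15.6 and 21.3 CPM in the DMSO samples, 51 and 87.4 under compound 4, 70.5 and 86.4 under compound 5, and 23 and 32 under compound 6. In these genes the compound 6 samples were the nearest to the controls, and the changes were 2.38 ± 0.23 (SE), adjusted p = 0.000262, 1.61 ± 0.27 (SE), adjusted p = 0.00252 and 1.52 ± 0.23 (SE), adjusted p = 0.0016. MT1H had 4 counts over both DMSO libraries and 80 over the treated ones, a ratio of 6.39 with a counting interval of 2.4 to 24. MT1G and MT1H share 23.3% and 27.7% of their 31-base words with other transcripts. The zinc exporter SLC30A1 was also higher (0.63 ± 0.08), and SLC30A10 (-1.04 ± 0.17) and SLC39A10 (-0.50 ± 0.12), transporters of manganese and of zinc, were lower. The metal response element was searched as TGCACNC or TGCGCNC on both strands, letters that 39.2% of all promoters hold. The 250 bases before the start of MT2A, at chr16:56608334-56608583 (+ strand), hold 7 of them and those of MT1H, at chr16:56669564-56669813 (+ strand), hold 8, shown in capitals. Only 8 of the 13 genes have a listed promoter, so no share is given for the list.
MT2A: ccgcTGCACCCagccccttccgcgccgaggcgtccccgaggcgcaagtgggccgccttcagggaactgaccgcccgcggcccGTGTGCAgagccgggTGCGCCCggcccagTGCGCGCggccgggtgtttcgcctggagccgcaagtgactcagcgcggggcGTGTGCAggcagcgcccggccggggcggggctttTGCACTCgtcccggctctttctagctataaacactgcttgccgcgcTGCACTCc
MT1H: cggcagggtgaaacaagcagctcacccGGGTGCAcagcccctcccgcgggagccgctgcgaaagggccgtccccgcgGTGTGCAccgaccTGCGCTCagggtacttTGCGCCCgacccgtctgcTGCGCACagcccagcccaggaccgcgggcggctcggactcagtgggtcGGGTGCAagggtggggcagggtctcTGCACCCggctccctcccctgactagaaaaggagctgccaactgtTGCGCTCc
Among these genes the pooled call did not hold for MT1H without DMSO replicate 1, for MT1H without DMSO replicate 2, for MT1H without compound 5 and for MT1H without compound 6 replicate 2, with adjusted p-values from 0.0503 to 0.164. The 7 higher calls became 2 with the treated samples as 1 group, MT1G and MT1H among those lost, and the 2 lower ones became 1 there, without either DMSO replicate and without compound 5.

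Targets of xenobiotic receptors rose in a few genes. CYP1A1, the classical aryl hydrocarbon receptor target, was at 4.13 and 3.21 CPM in the DMSO samples, 69.2 and 62.1 under compound 4, 11.5 and 7.46 under compound 5, and 16.5 and 29.5 under compound 6. Every treated sample was above the controls and compound 4 was highest (2.73 ± 0.28 (SE), adjusted p = 0.00029), with per-compound changes of 4.17 (compound 4), 1.36 (compound 5) and 2.67 (compound 6) (difference among the compounds, adjusted p = 0.00103). CYP3A5 was at 1.58 and 1.48 CPM in the DMSO samples, 13.5 and 11.2 under compound 4, 4.49 and 2.75 under compound 5, and 4.48 and 3.71 under compound 6 (1.88 ± 0.27 (SE), adjusted p = 0.00121). CYP2B6, a target of the receptor CAR, changed by 1.39 ± 0.25 (SE), adjusted p = 0.00389, and ABCC2, an exporter of conjugates, by 0.93 ± 0.11 (SE), adjusted p = 0.000473. AHR itself changed by 0.76 ± 0.10. AHR, CYP2B6 and GSTM4 share 31.6%, 22.5% and 22.9% of their 31-base words with other genes. CYP2S1 changed by nearly the same amount in each compound (1.62 (compound 4), 1.56 (compound 5) and 1.52 (compound 6)). In the lists, 3 of 8 aryl hydrocarbon receptor genes were called higher, CYP1A1, AHR and NFE2L2, and 4 of 12 PXR and CAR targets, CYP3A5, CYP2B6, ABCC2 and POR (0.29). Of 21 conjugation enzymes 3 were called lower, GSTM4 (-0.65 ± 0.13), GSTA4 (-0.72) and GSTA1 (-1.77 ± 0.45), the last at 0.0917 to 0.702 CPM in the treated samples against 1.28 and 1.89 with DMSO and with 47.4% of its 31-base words in other transcripts. That is 14.3% of the list, against 19.5% of all genes, and these 3 genes were not called without DMSO replicate 1 or without DMSO replicate 2. The 4 PXR and CAR calls became 2 and the 3 aryl hydrocarbon receptor calls also 2 without DMSO replicate 2. With the treated samples as 1 group they were 2 and 1, the lower conjugation calls 1, and CYP1A1, CYP3A5, GSTA1 and NFE2L2 were not called. CYP3A4, the overexpressed enzyme, was at 198 and 207 CPM in the DMSO samples, 287 and 216 under compound 4, 371 and 421 under compound 5, and 170.5 and 171 under compound 6, and was not called (0.34 ± 0.11 (SE), adjusted p = 0.0537). The call was missed for GSTA1, GSTM4 and NFE2L2 without DMSO replicate 1, for CYP2B6, GSTA1, GSTM4 and NFE2L2 without DMSO replicate 2 and for GSTA1 and NFE2L2 without compound 5, with adjusted p-values from 0.0546 to 0.236.

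Genes of sterol synthesis and LDL uptake, counted as 1 list, were mostly lower. Of 29 genes 22 were called lower and 1 higher, with a median of -0.894, the lowest of the 34 lists. MSMO1, which removes methyl groups from sterols, was at 122 and 99 CPM in the DMSO samples, 31 and 41.8 under compound 4, 20.4 and 25.5 under compound 5, and 69.3 and 49.4 under compound 6. IDI1, an isomerase of the isoprenoid branch, was at 97.6 and 89.3 CPM in the DMSO samples, 26.1 and 34.6 under compound 4, 18.1 and 24.5 under compound 5, and 55.8 and 42.9 under compound 6. FDFT1, squalene synthase, was at 310.1 and 274 CPM in the DMSO samples, 90.4 and 112 under compound 4, 53.3 and 68.7 under compound 5, and 203 and 137 under compound 6. All treated samples were below the controls, in each case lowest with compound 5 and nearest to DMSO with compound 6 (-1.59 ± 0.15 (SE), adjusted p = 0.000217, -1.56 ± 0.14 (SE), adjusted p = 0.000162 and -1.52 ± 0.14 (SE), adjusted p = 0.000231). SQLE, squalene epoxidase, named after its values were seen, changed by -1.23 ± 0.11. Without DMSO replicate 1 the list had 20 lower calls and without DMSO replicate 2 it had 22, and the 1 higher call was lost in both. The compounds differed in 16 of the 29 genes, with medians of -0.913, -1.26 and -0.647.

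Fatty acid, triglyceride and lipoprotein genes were lower in part. Of 22 lipogenic genes 12 were called lower and 1, LPIN2, higher (median -0.454), of 19 apolipoprotein and lipoprotein assembly genes 10 were called lower (median -0.412), and of 19 PPAR alpha and fatty acid oxidation genes 5 were called lower and 1, PPARGC1A, higher. Both conditions held for 11 of the 12 and 7 of the 10 lower calls of the first 2 lists. PNPLA3, a lipid droplet protein, was at 23.2 and 28.3 CPM in the DMSO samples, 7.78 and 9.44 under compound 4, 6.32 and 6.99 under compound 5, and 16.9 and 14.2 under compound 6 (-1.42 ± 0.13 (SE), adjusted p = 0.000203). DGAT2, which makes triglyceride, was at 66.7 and 59.6 CPM in the DMSO samples, 31.9 and 37 under compound 4, 13.7 and 20.4 under compound 5, and 56 and 51.7 under compound 6 (-0.99 ± 0.13 (SE), adjusted p = 0.000665), with -0.87 (compound 4), -1.88 (compound 5) and -0.23 (compound 6). MTTP, which loads lipid onto apolipoprotein B, was at 155 and 140.0 CPM in the DMSO samples, 78.6 and 78.6 under compound 4, 58.6 and 65.4 under compound 5, and 122 and 94.5 under compound 6 (-0.87 ± 0.10 (SE), adjusted p = 0.000505). APOA5, LCAT, FADS2, FABP1 and EHHADH, which act in triglyceride clearance, cholesterol esterification, desaturation, fatty acid binding and peroxisomal oxidation, changed by -1.34 ± 0.16, -0.79 ± 0.12, -1.38 ± 0.23, -1.04 ± 0.15 and -1.08 ± 0.13. ANGPTL4, ACAA2 and HADHB, also of the oxidation list, changed by -0.83 ± 0.22, -0.51 ± 0.11 and -0.32. Of the 12 and 10 calls of the first 2 lists, the counts became 8 and 4 without DMSO replicate 1 and 7 and 5 without DMSO replicate 2. The 5 lower oxidation calls became 2 and 3, and 3 without compound 5, and the higher call of PPARGC1A was lost in each. With the treated samples as 1 group the lower calls of the 3 lists were 3, 7 and 3, and ANGPTL4 and DGAT2 were not called. The pooled call was lost for ACAA2 and ANGPTL4 without DMSO replicate 1, for ANGPTL4 without DMSO replicate 2, for ANGPTL4 without compound 5 and for ANGPTL4 without compound 5 replicate 2, with adjusted p-values from 0.0541 to 0.28.

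Liver secretory and bile acid genes gave calls in both directions. Among 22 plasma carriers and acute-phase proteins 2 were called higher, HAMP and ITIH3, and 5 lower, AFP, TF, HP, SERPINA6 and SERPINA7, and among 33 coagulation and complement genes 2 higher, MASP1 and C5AR1, and 6 lower. These are 31.8% and 24.2% of the lists, where 19.5% of all genes were called. HAMP, the iron hormone hepcidin, was at 26.2 and 17.5 CPM in the DMSO samples, 53.9 and 59.6 under compound 4, 60.9 and 62.3 under compound 5, and 56.7 and 69 under compound 6 (1.47 ± 0.15 (SE), adjusted p = 0.000306). HP, haptoglobin, was at 31.1 and 32.6 CPM in the DMSO samples, 9.06 and 13.5 under compound 4, 11.6 and 14.1 under compound 5, and 19 and 16.1 under compound 6 (-1.22 ± 0.14 (SE), adjusted p = 0.000454). TF, transferrin, and AFP, both also hepatocyte markers, changed by -0.50 ± 0.10 (SE), adjusted p = 0.00586 and -0.58 ± 0.10 (SE), adjusted p = 0.00249. With the marker APOA1 (-0.73) they were the 3 of 10 hepatocyte markers called, and the median of the 10 was -0.122. ALB, the largest part of the marker sum, was at 18500 and 16400 CPM with DMSO and 12600 to 16000 in treated samples, and was not called. GPC3, HNF4A and TTR overlapped the DMSO samples. The part of the lower marker sum in these lists was not tested. APOB, a marker gene named after its values were seen, was at 5679 and 7468 CPM in the DMSO samples, 6521 and 2889 under compound 4, 8629.6 and 6920.1 under compound 5, and 8303 and 7592 under compound 6, with compound 4 replicate 2 apart from its partner. ITIH3 and MASP1 were higher (0.93 ± 0.09 and 0.97 ± 0.12), and C8A, C8B and CFI lower (-1.33 ± 0.31, -1.28 ± 0.32 and -0.63 ± 0.09), the last with 34.5% of its 31-base words in other genes. Of 18 bile acid genes 5 were called higher (SLCO1B3, ABCC3, SLC51A, SLC51B and NR0B2) and 5 lower (CYP7A1, AKR1D1, SLCO2B1, KLB and NR1H4). CYP7A1, the rate-limiting enzyme of bile acid synthesis, was at 1.38 and 2.05 CPM in the DMSO samples, 0.171 and 0.156 under compound 4, 0.275 and 0.55 under compound 5, and 0.626 and 0.412 under compound 6 (-2.36 ± 0.42 (SE), adjusted p = 0.00372), from low levels. SLC51B, a subunit of the bile acid exporter OST, was at 11.2 and 9.45 CPM in the DMSO samples, 33.1 and 41 under compound 4, 80.3 and 90.4 under compound 5, and 17.4 and 22.6 under compound 6 (1.95 ± 0.15 (SE), adjusted p = 0.00013), with per-compound changes of 1.85 (compound 4), 3.05 (compound 5) and 0.97 (compound 6). AKR1D1 and KLB changed by -1.34 ± 0.22 and -1.14 ± 0.12. Among 22 hepatocyte transcription factors, of which 27.3% were called, 5 were called higher, ONECUT2 and ESRRA among them, and 1 lower: NR0B2, the repressor SHP, changed by 1.04 ± 0.11 (SE), adjusted p = 0.000353, HNF4G by 0.45 ± 0.13, CEBPB by 0.80 ± 0.24 and NR1H4, the bile acid receptor, by -0.62 ± 0.12. Without DMSO replicate 1 and DMSO replicate 2 the lower calls of plasma proteins became 2 and 3, those of coagulation and complement 1 and 3 and the higher ones 1 and 1, the higher calls of bile acid genes 3 and 3 and the lower ones 5 and 3, and those of transcription factors 1 and 1 higher and 1 and 0 lower. The transcription factors also had 1 higher call, and the bile acid genes 3, without compound 5. With the treated samples as 1 group the higher and lower calls were 1 and 4 for plasma proteins, 1 and 2 for coagulation and complement, 1 and 2 for bile acid genes and 1 and 0 for transcription factors, and AKR1D1, C8B, CEBPB, HNF4G, ITIH3, NR1H4, SLC51A and SLC51B were not called. CEBPB and HNF4G were not called by DESeq2 either. SLC51A overlapped the controls and is not in the common response. Leaving out libraries ended the pooled call for C8A, C8B, CEBPB, HNF4G, SLC51A and TF without DMSO replicate 1, for CEBPB, CYP7A1, HNF4G, NR1H4, SLC51A and TF without DMSO replicate 2, for CEBPB, HNF4G and SLC51A without compound 5, for HNF4G without compound 5 replicate 2 and for CEBPB and HNF4G without compound 6 replicate 2, with adjusted p-values from 0.0581 to 0.612.

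Immediate early and MAP kinase feedback genes rose in part. Of 31 tested, 19 were called higher, 17 of them with every treated sample above DMSO (median 0.573, and 0.475, 1.12 and 0.401 with compounds 4, 5 and 6), and the compounds differed in 17 (10.8% of all genes). AREG, an EGF receptor ligand, was at 1.67 and 1.56 CPM in the DMSO samples, 5.39 and 4.91 under compound 4, 16.1 and 20.1 under compound 5, and 3.13 and 10.3 under compound 6. EREG, another ligand of that receptor, was at 22 and 19.3 CPM in the DMSO samples, 59.6 and 56.2 under compound 4, 127 and 153 under compound 5, and 56.3 and 119 under compound 6. Both were above DMSO in all treated samples and highest with compound 5 (2.41 ± 0.42 (SE), adjusted p = 0.00319, and 2.12 ± 0.25 (SE), adjusted p = 0.000495). Cytokine and NF-kappa B genes gave 10 higher calls and 1 lower, BIRC3, among 25. CXCL8, a neutrophil chemokine, was at 0.394 and 0.575 CPM in the DMSO samples, 1.2 and 0.78 under compound 4, 9.62 and 15.3 under compound 5, and 1.46 and 2.55 under compound 6 (2.55 ± 0.44 (SE), adjusted p = 0.00307), CCL20 at 143 and 119 CPM in the DMSO samples, 347 and 389 under compound 4, 752 and 701 under compound 5, and 194 and 258 under compound 6 (1.58 ± 0.13 (SE), adjusted p = 0.000143). CSF1 and TNFRSF12A changed by 1.70 ± 0.23 and 1.45 ± 0.18. For CXCL8 the compound 5 samples set most of the mean, and without compound 5 it was not called. The 19 calls became 10 without DMSO replicate 1, 11 without DMSO replicate 2 and 7 with the treated samples as 1 group, where AREG, BIRC3, CCL20 and CXCL8 were not called, and the 10 cytokine calls became 6 without either one. Among these genes the pooled call did not hold for AREG and BIRC3 without DMSO replicate 2 and for CXCL8 without compound 5, with adjusted p-values from 0.0541 to 0.122.

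Cytoskeletal genes and targets of TGF-beta and YAP rose in part. Of 30 cytoskeleton, keratin and integrin genes 14 were called higher and 2 lower, TUBB4B (-0.40) and CDH1 (-0.28), and of 25 TGF-beta and YAP targets 10 were called higher and 1 lower. The compounds differed in 2 and 4 of these genes, where 10.8% of all genes differed. KRT23, a keratin, was at 57.8 and 42.4 CPM in the DMSO samples, 131 and 125 under compound 4, 135 and 111 under compound 5, and 99.2 and 143 under compound 6 (1.31 ± 0.17 (SE), adjusted p = 0.000658). FLNA, filamin A, was at 532 and 574 CPM in the DMSO samples, 1402 and 969 under compound 4, 1242 and 1066 under compound 5, and 852 and 1172 under compound 6 (1.01 ± 0.16 (SE), adjusted p = 0.00203). The ranges of the 3 compounds overlapped in these genes, and the difference among the compounds gave adjusted p = 0.944 and 0.604, which does not show that they act alike. ANKRD1, AXL, a receptor tyrosine kinase, and TUBB6 changed by 1.94 ± 0.28, 1.51 ± 0.32 and 1.1579 ± 0.15, and ITGA2 by 0.97 ± 0.19. LTBP2, which binds latent TGF-beta, was the called member that fell (-1.57 ± 0.38). Among called genes with a log2 change of at least 1 in every compound, KRT23 and CYP2S1 were 2 of the 5 with the smallest range between compounds, and the others were COLGALT2 (1.34 (compound 4), 1.27 (compound 5) and 1.22 (compound 6)), FAM3B (-1.09 (compound 4), -1.10 (compound 5) and -1.02 (compound 6)) and PMP22 (-1.08 (compound 4), -1.21 (compound 5) and -1.09 (compound 6)). The 14 and 10 higher calls became 9 and 6 without DMSO replicate 1, and 6 and 5 without DMSO replicate 2. The lower calls, 2 and 1, became 0 and 0 without either DMSO replicate, and 1 and 0 without compound 5 and with the treated samples as 1 group, where ITGA2 and LTBP2 were not called. PMP22 was not called by DESeq2. The call was missed for FAM3B, ITGA2, LTBP2 and PMP22 without DMSO replicate 1, for AXL, LTBP2 and PMP22 without DMSO replicate 2 and for LTBP2 and PMP22 without compound 5, with adjusted p-values from 0.0603 to 0.184.

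Autophagy and lysosome genes were called higher for 16 of 34 and 9 of 35, and lower for 3 (ATG10, BNIP3 and BNIP3L) and 2 (CTSC and LIPA). WIPI1, which acts on the forming autophagosome, was at 36 and 24.3 CPM in the DMSO samples, 71.7 and 62.6 under compound 4, 83.8 and 74.4 under compound 5, and 58.5 and 61.8 under compound 6 (1.19 ± 0.14 (SE), adjusted p = 0.000546). GABARAPL1 and ULK1, a tag and a kinase of the same pathway, changed by 0.98 ± 0.14 and 0.75 ± 0.11. CTSB, a cathepsin, was at 715 and 626 CPM in the DMSO samples, 1508 and 1519 under compound 4, 1058 and 935 under compound 5, and 905 and 1112 under compound 6 (0.78 ± 0.11 (SE), adjusted p = 0.000996). CTSL, MCOLN1 and ASAH1 changed by 0.84 ± 0.11, 0.72 ± 0.14 and 0.53 ± 0.11. Of 32 glycolysis and hypoxia targets 4 were called higher and 17 lower (median -0.371). PFKFB4, which sets fructose bisphosphate signalling, was at 78.3 and 91.6 CPM in the DMSO samples, 40.6 and 39.3 under compound 4, 25.4 and 29.4 under compound 5, and 45.8 and 37.4 under compound 6 (-1.25 ± 0.10 (SE), adjusted p = 0.000143). ALDOC fell as well (-0.95 ± 0.13), while the hexokinase HK1 (1.38 ± 0.26) and the platelet phosphofructokinase PFKP (1.10 ± 0.16) were higher, as were ENO2 and the glucose transporter SLC2A1 (0.36 and 0.75). Of 25 apoptosis regulators 6 were called higher and 4 lower, among them MCL1 (0.95 ± 0.17) and PMAIP1 (1.21 ± 0.30) higher, and TNFSF10, the ligand TRAIL (-1.52 ± 0.24), BIRC3 (-0.98 ± 0.19), BAX (-0.29) and CASP6 (-0.62) lower. Of 15 mitochondrially encoded genes the 2 ribosomal RNAs were called (13.3%, against 19.5% of all genes). MT-RNR2 changed by 0.62 ± 0.15 (SE), adjusted p = 0.0143 and MT-RNR1 by 0.57 ± 0.08 (SE), adjusted p = 0.00125, and neither was called without compound 5. Alone, compounds 4 and 6 gave adjusted p = 0.18 and 0.153 for MT-RNR2 and 0.102 and 0.0713 for MT-RNR1. MT-RNR2 shares 31.7% of its 31-base words with other genes. EEF2, an elongation factor, was higher by 0.38 ± 0.09 (SE), adjusted p = 0.0116. Without DMSO replicate 1 and DMSO replicate 2 the 16 autophagy calls became 6 and 6, the 9 lysosome calls 3 and 2, the 17 lower glycolysis calls 6 and 11, and the 6 higher and 4 lower apoptosis calls 1 and 1, and 3 and 1. Without compound 5 these counts were 7, 6, 10, 3 and 2, and with the treated samples as 1 group they were 5, 2, 9, 3 and 1, and ALDOC, ASAH1, BIRC3, MCOLN1, MT-RNR1, MT-RNR2 and ULK1 were not called. The 3 lower autophagy calls became 1, and the 2 lower lysosome calls 0, without either DMSO replicate or compound 5, and the 4 higher glycolysis calls became 2 without DMSO replicate 1. PMAIP1 was not called by DESeq2. The pooled call was lost for EEF2, HK1, MCL1, MCOLN1, MT-RNR2 and PMAIP1 without DMSO replicate 1, for ASAH1, BIRC3, EEF2, MCL1, MCOLN1, MT-RNR2 and PMAIP1 without DMSO replicate 2 and for MT-RNR1, MT-RNR2, PMAIP1 and ULK1 without compound 5, with adjusted p-values from 0.0523 to 0.139.

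A common direction did not mean a common size. The test that the 3 compounds are equal, which does not use DMSO in its contrast, passed for 1443 genes (10.8%) and for 407 of the 2263 common genes (18%), 272 of the 1106 higher (24.6%) and 135 of the 1157 lower (11.7%). Among these, the largest change was with compound 5 in 231 of the 272 higher and 117 of the 135 lower genes. Over all common genes, compound 5 had the largest change in 60.8% of the higher and 62.2% of the lower, and compound 6 the smallest in 50.5% and 57.6%. Median log2 fold changes of the higher genes were 0.592, 0.768 and 0.515 with compounds 4, 5 and 6, and those of the lower genes -0.583, -0.7 and -0.475. Compound 5 had the largest medians, and the concentrations of the compounds also differed. The count of differences rests on compound 5: it was 3 without that compound, 73 and 92 without its replicate 1 or 2, 888 and 923 without DMSO replicate 1 or 2, 877 without compound 6 replicate 1 and 2919 without compound 4 replicate 1.

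**Figure D3:**
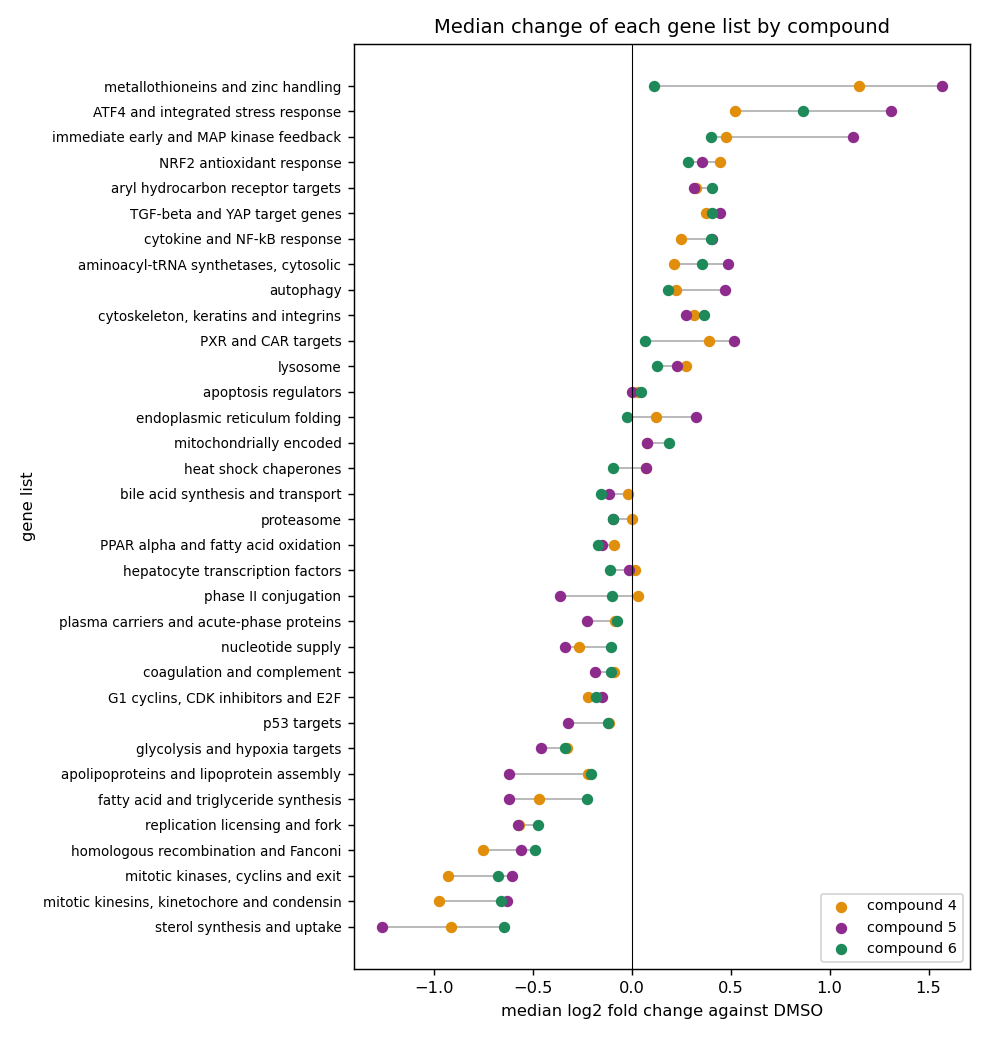
Median log2 fold change against DMSO of the tested members of each list (y axis) with compound 4 (orange), compound 5 (purple) and compound 6 (green). Compound 5 is outermost in the sterol, metallothionein, ATF4 and immediate early lists, and compound 4 in the 2 mitotic lists; the 3 medians share the same DMSO samples.

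Outside the common response, 1314 genes (9.8%) had both samples of one compound above DMSO and both samples of another below, and 426 of them (3.18%) passed the test of a difference among the compounds. Of these 1314 genes 7 were called in the pooled test (0.0522% of those tested). SLC51A, the partner of SLC51B in the bile acid exporter, was at 9.65 and 9.12 CPM in the DMSO samples, 8.29 and 10.4 under compound 4, 33.3 and 41.3 under compound 5, and 7.92 and 7.33 under compound 6, with a pooled change of 0.56 ± 0.15 (SE), adjusted p = 0.0218. HS6ST1, a sulfotransferase of heparan sulfate, was at 203 and 198 CPM in the DMSO samples, 237 and 225 under compound 4, 344 and 339.6 under compound 5, and 189.7 and 191 under compound 6 (0.30 ± 0.08 (SE), adjusted p = 0.0212). Compound 5 was highest in both genes and compound 6 below both controls, and neither gene was called without compound 5 or with the treated samples as 1 group. The other 5 were ERRFI1, RAB17, SLC26A9 and RSC1A1 (0.40, 0.38, -0.62 and -2.55) and a gene with no symbol.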

How the data were processed

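RNA from 8 samples of CYP3A4-overexpressing HepG2 cells was sequenced after directional library preparation. The authors checked reads with FastQC 0.12.0 and quantified transcripts with Salmon 1.5.0 against GRCh38; the deposited values are estimated counts for each gene, not normalized, which had been rounded, and the authors analysed them with DESeq2 1.38.3. The columns of replicate 1 of compounds 4 and 5 are named as merged, per the file headers. All columns were used.

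Genes passing filterByExpr were fitted in R 4.3.3 with edgeR 4.0.16 (TMM scaling, quasi-likelihood, 4 groups, 2 samples each). The contrast was the mean of the 3 compounds minus DMSO, with Benjamini-Hochberg adjustment over all 13404 genes. The equality of the compounds was tested with 2 degrees of freedom in the same fit. All adjusted p-values in the text come from edgeR. An exact permutation test of 6 samples against 2 has 28 splits and cannot give a two-sided p under 0.0714. On simulated data, 82.5% of 200 genes changed by 1 on the log2 scale were called in the pooled comparison of 13404 genes, and 5.96% of calls fell on unchanged genes. Replicates of a group differed by more than sampling noise (chi-square per degree of freedom 5.512 to 17.16). No source used here says that they came from separate cultures, so p-values measure the spread between these samples. Counting intervals and floors cover counting error only.

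Replicate numbers pair the samples by the day in the labels; deviations from the group means correlated by -0.083 to 0.16 between groups. Named genes were up to 4 per list with the largest change among those called and on one side, the 12 in each direction with the largest change in the least responsive compound among those called, on one side, with a symbol and with a mean of at least 1 CPM, the 5 with a log2 change of at least 1 in every compound and the smallest range between compounds, the 6 with the smallest p for a difference and compounds on opposite sides of DMSO, of which 5 are reported, 9 genes that the study names, the 5 most abundant of those called and on one side, and CYP3A4. Genes that complete a count of 5 or fewer were named after their values were seen. Some genes that these rules pick are not reported here. The members and the 34 lists were chosen with earlier results of these data known. Gene promoters came from RefSeq (GRCh38.p14). The share of 31-base words found in other genes was computed on transcripts of another GENCODE release than the authors' own. Alternatives were other scalings and filters, DESeq2 1.42.0, a replicate block, 2 groups, a stricter threshold, and leaving out libraries or compounds.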

Additional observations from a re-analysis of the deposited data

Results flagged for a closer look

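For 426 genes (3.18% of those tested) the test of a difference among the compounds passed while the compounds lay on opposite sides of the DMSO samples, and 6 of them are given here. CYP3A4 was named for its role, and the other 5 were taken for the smallest p of that test, so their values are a description, and the difference is between compounds at different concentrations.

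CYP3A4, the overexpressed enzyme, had log2 fold changes of 0.31 (compound 4), 0.97 (compound 5) and -0.25 (compound 6), and the difference among the compounds had an adjusted p of 0.00324. SLC51A had -0.00 (compound 4), 1.99 (compound 5) and -0.30 (compound 6) (adjusted p = 0.00033). LCN15 had 0.19 (compound 4), -1.20 (compound 5) and 0.52 (compound 6) (adjusted p = 0.00103). SCNN1A, a subunit of the epithelial sodium channel, had 0.85 (compound 4), -0.86 (compound 5) and 1.08 (compound 6) (adjusted p = 0.00224). FKBP14, a prolyl isomerase of the endoplasmic reticulum, had -0.03 (compound 4), 0.76 (compound 5) and -0.16 (compound 6) (adjusted p = 0.00237). HS6ST1 had 0.20 (compound 4), 0.77 (compound 5) and -0.08 (compound 6) (adjusted p = 0.0027).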

How the results depend on the processing

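The pooled comparison called 895 genes (447 higher, 448 lower) when the 6 treated samples formed 1 group, 1354 (714 and 640) without compound 5 and 1132 (596 and 536) at a threshold of 0.01. Genes on one side and called then numbered 893, 1337 and 1107. Genes above both DMSO samples numbered 2515 without compound 4. The difference among the compounds passed for 3101 genes with no filter on low counts, 3 without compound 5, 715 without the merged libraries and 221 at 0.01. Of genes chosen as higher on day 1 with a difference of at least 0.5, 62.5% were above DMSO on day 2. With 1 library left out, the pooled count ran from 673 to 3201 (801 without DMSO replicate 1, 673 without DMSO replicate 2), higher genes from 352 to 1767, lower genes from 321 to 1448, genes on one side from 3756 to 5538, above from 1725 to 2600, below from 1914 to 2938, on one side and called from 669 to 2762, and the difference among the compounds from 73 to 2919. With the replicate number as a block, 2541 genes were called, 2196 were on one side and called, and 1219 differed among the compounds; of the named genes ERO1B alone lost its call. Without compound 5 the pooled value of SLC51A was -0.152, of LCN15 0.351 and of FKBP14 -0.0974, each of the opposite sign to the full comparison, and LCN15 ran from -0.33 to 0.0216 with 1 library left out, positive without DMSO replicate 1. Of 147 named genes that were called, 40 lost the call without DMSO replicate 1, 49 without DMSO replicate 2, 40 with 2 groups, 22 without compound 5 and 7 in DESeq2 (ACBD7, CEBPB, ERO1B, HNF4G, PMAIP1, PMP22 and SESN3). The cause was not tested. A lone DMSO sample is assumed to vary like the other groups.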
